A study of Mus musculus with 15 samples.

Results

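The corpus callosum on the side opposite an L-NIO lesion (LNIO_Contra) was compared with callosum of sham mice at the site of a saline injection (Sham_Ipsil), in 3 libraries a group, 6 of the 15 libraries of the series. L-NIO is an arginine analogue that blocks endothelial nitric oxide synthase. Injected into white matter, it makes a small ischaemic lesion that serves as a model of white matter stroke. LNIO_Contra tissue was taken 4 days after the injury and had no needle of its own, whereas Sham_Ipsil tissue came from the injected side of mice that had received saline, on a day the labels do not name. Set beside them were LNIO_Ipsil, the injured callosum of the same model, and LPC_Contra, the side opposite a lesion made with lysophosphatidylcholine (LPC), a lipid that strips myelin, both taken on the same day after injury. Strain, age and sex are not given in the labels. Side of the brain, passage of a needle and remote injury therefore differ together between these groups and cannot be told apart. All tested genes were kept as members, 16795 of the 33321 genes in the table, after a filter on low counts. Nothing in the labels ties the 3 libraries of a group to separate animals. The p-values of the main test rest on how far libraries of a group differ among themselves, over all 15 libraries. That spread could be technical.

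Axons of the callosum cross the midline from one cortex to the other, so white matter opposite a lesion holds fibres whose partner segments run through the injured side. Oligodendrocytes wrap these fibres in myelin and arise from precursor cells spread through the tract. Microglia, the resident phagocytes, and astrocytes change their gene expression around a lesion, and injured tissue commonly turns on complement, chemokine and interferon-stimulated genes. Whether the opposite side can stand for uninjured tissue is a usual question in such models, since distant effects of an injury can reach it.

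Both groups were rich in myelin transcripts, and both also held RNA of neighbouring grey matter. On the deposited FPKM scale, which divides by gene length, Mbp (myelin basic protein) stood at 789, 809 and 828 in LNIO_Contra libraries and at 789, 577 and 579 in Sham_Ipsil libraries. Snap25, a protein of the presynaptic terminal, stood at 290, 250 and 308 FPKM in LNIO_Contra and at 236, 308 and 253 FPKM in Sham_Ipsil. Slc17a7, the vesicular transporter of cortical glutamate neurons, ranged from 99.7 to 125 FPKM in LNIO_Contra and from 99.1 to 138 FPKM in Sham_Ipsil, so synaptic grey matter RNA was present in both groups at similar levels. Total counts ran from 16513469 to 20915736 in LNIO_Contra and from 14896445 to 19971859 in Sham_Ipsil, and mitochondrially encoded genes took 8.74 to 13.7% of counts in LNIO_Contra and 10.1 to 10.4% in Sham_Ipsil.

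No gene passed an adjusted p of 0.05 between LNIO_Contra and Sham_Ipsil over all 16795 genes (0% called). The test was edgeR's quasi-likelihood test, fitted to all 15 libraries. Without adjustment, 457 genes (2.72%) had a p under 0.05, 177 higher (1.05%) and 280 lower (1.67%) in LNIO_Contra. DESeq2 on the same counts called 2 genes, Gm8885 and Tnfaip8l3. With only the 2 groups compared in the fit, edgeR called 3 genes, and 751 had an unadjusted p under 0.05. In the fit of all 15 libraries the log2 fold change was above 0 for 8537 genes (50.8%), its median was 0.00 and the median of its size was 0.13. The 3 libraries of one group lay wholly outside the 3 of the other for 1702 genes (10.1%), 841 of them higher (5.01%) and 861 lower (5.13%) in LNIO_Contra. For 12756 genes (76%) the 95% interval of the log2 fold change stayed within 1 unit on either side of 0, a 2-fold difference, and the median half-width of the interval was 0.42. The comparison thus bounded most genes below a 2-fold difference and left smaller differences unresolved.

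**Figure D1:**
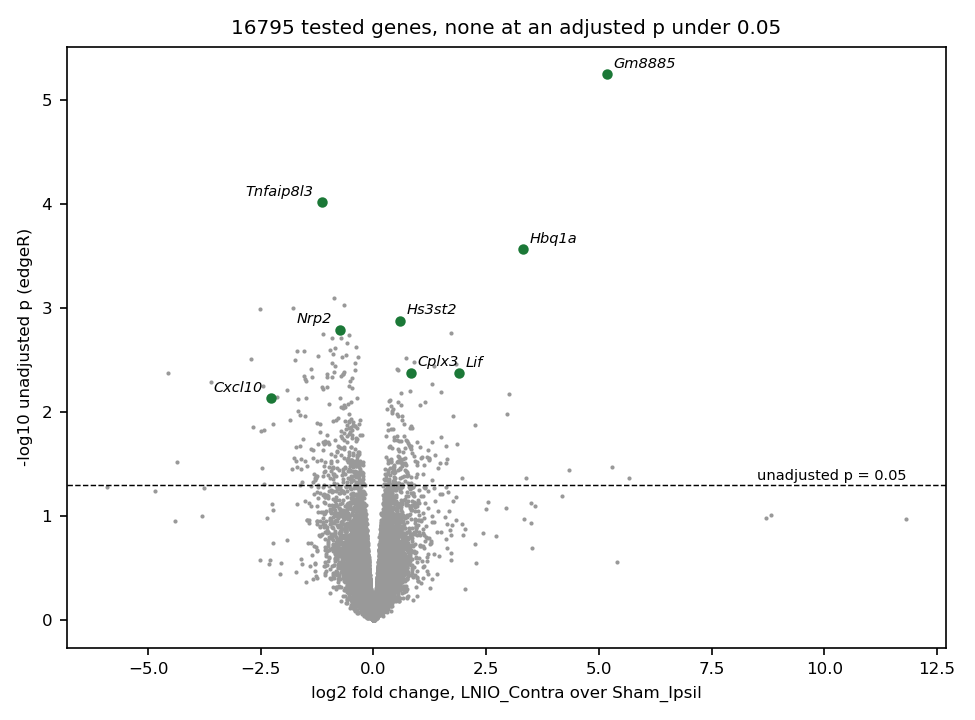
Each point is 1 of the 16795 tested genes, with the log2 fold change of LNIO_Contra over Sham_Ipsil on the x axis and -log10 of the unadjusted edgeR p on the y axis. Most genes lie close to 0, and the few named in green stand farthest out or are described in the text; none passed the adjusted threshold.

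The gene nearest to the threshold was Gm8885, which RefSeq lists as a pseudogene, with an adjusted p of 0.0946. Its level was 4.66, 1.99 and 2.56 CPM (read counts scaled to the library total, TMM-adjusted) in the 3 LNIO_Contra libraries, against 0, 0.135 and 0.101 CPM in the Sham_Ipsil libraries. These values are 165 counts summed over LNIO_Contra and 4 over Sham_Ipsil, a 38.3-fold ratio of CPM with a 95% counting interval of 14.7 to 142. LNIO_Ipsil held 4.51, 3.50 and 2.13 CPM, while no library of either LPC group, injured or contralateral, exceeded 0.181 CPM. Gm8885 reads were thus high in all 6 libraries of the L-NIO model, on both sides, and at or near 0 in the other 9. As a pseudogene it may share reads with its parent gene, and how the counting treated such reads is not given in the sources used here.

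Another pair of genes also had higher means in both L-NIO groups, with some overlap between libraries. Nudt19, a nudix hydrolase of peroxisomes that cleaves coenzyme A, stood at 46.9, 39.1 and 37.1 CPM in LNIO_Contra and at 17.3, 31.0 and 18.4 CPM in Sham_Ipsil. Its log2 fold change was 0.89 ± 0.25 (SE), and its mean was 38.3 CPM in LNIO_Ipsil and 20.3 CPM in LPC_Contra. Hbq1a, a theta-type globin gene, had 46 counts over the LNIO_Contra libraries and 4 over Sham_Ipsil, a ratio of 10.7 with a counting interval of 3.90 to 40.9, and averaged 0.588 CPM in LNIO_Ipsil and 0.296 CPM in LPC_Contra. The LNIO_Contra and Sham_Ipsil libraries did not overlap for either gene, and neither was called.

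The lower end of the list began with Tnfaip8l3, a carrier of phosphoinositide lipids. It stood at 8.46, 6.76 and 5.49 CPM in LNIO_Contra and at 16.7, 16.9 and 12.1 CPM in Sham_Ipsil, with a log2 fold change of -1.14 ± 0.21 and an adjusted p of 0.797 in edgeR. DESeq2 called it, at an adjusted p of 0.00498. Its mean was also low in LNIO_Ipsil (6.14 CPM) and in LPC_Contra (4.62 CPM), so the Sham_Ipsil libraries were the high ones.

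Epha4, an ephrin receptor that repels growing axons, stood at 146, 164 and 139 CPM in LNIO_Contra and at 192, 229 and 238 CPM in Sham_Ipsil (log2 fold change -0.55 ± 0.15). Its relative Epha7 stood at 97.5, 71.8 and 59.7 CPM in LNIO_Contra and at 127, 108 and 114 CPM in Sham_Ipsil (-0.61 ± 0.17). Nrp2, a receptor for semaphorins and vascular growth factors, stood at 16.3, 19.5 and 16.3 CPM in LNIO_Contra and at 31.3, 30.4 and 25.2 CPM in Sham_Ipsil (-0.74 ± 0.19). All of these were lower in each LNIO_Contra library than in any Sham_Ipsil library without being called. Gria1, an AMPA receptor subunit, had the same order, with 364, 331 and 227 CPM in LNIO_Contra and 464, 439 and 480 CPM in Sham_Ipsil, and so had the protocadherins Pcdhb3 (-0.88 ± 0.21) and Pcdhb13 (-0.72 ± 0.19), adhesion molecules of neurons. LPC_Contra means, which share no library with either group, were 150 CPM for Epha4, 63.5 for Epha7, 19.4 for Nrp2 and 315 for Gria1, near those of LNIO_Contra. Low values were not particular to uninjected sides. LNIO_Ipsil means were 141 CPM for Epha4, 64.7 for Epha7 and 293 for Gria1, also near those of LNIO_Contra, and 24.8 for Nrp2.

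Among the other genes that the naming rule gave on the lower side were the low-level transcripts G430095P16Rik (-2.52 ± 0.62), at 0.0868 CPM in LNIO_Contra and 0.550 CPM in Sham_Ipsil on average, and B430319G15Rik (-1.78 ± 0.44), at 0.329 CPM in LNIO_Contra and 1.18 CPM in Sham_Ipsil. The rest ranged in log2 fold change from -0.39 to -1.54. They were Rnf182, Ranbp3l, Nell1, Sphkap, Trpc4, Smoc2, Ndnf and Zic4. Smoc2, a matricellular protein, was at the far end of these, with 2.02, 3.26 and 2.13 CPM in LNIO_Contra and 3.83, 7.91 and 9.86 CPM in Sham_Ipsil. On the higher side Hs3st2, a heparan sulfate sulfotransferase of neurons, had the smallest p above the level limit of the rule. It stood at 34.5, 29.7 and 36.6 CPM in LNIO_Contra and at 18.5, 26.0 and 22.3 CPM in Sham_Ipsil, with a log2 fold change of 0.60 ± 0.15. The others reported here ran from 0.31 to 0.89, among them Igsf21, Necab3, Kcnip3, Garnl3 and Pttg1ip.

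**Figure D2:**
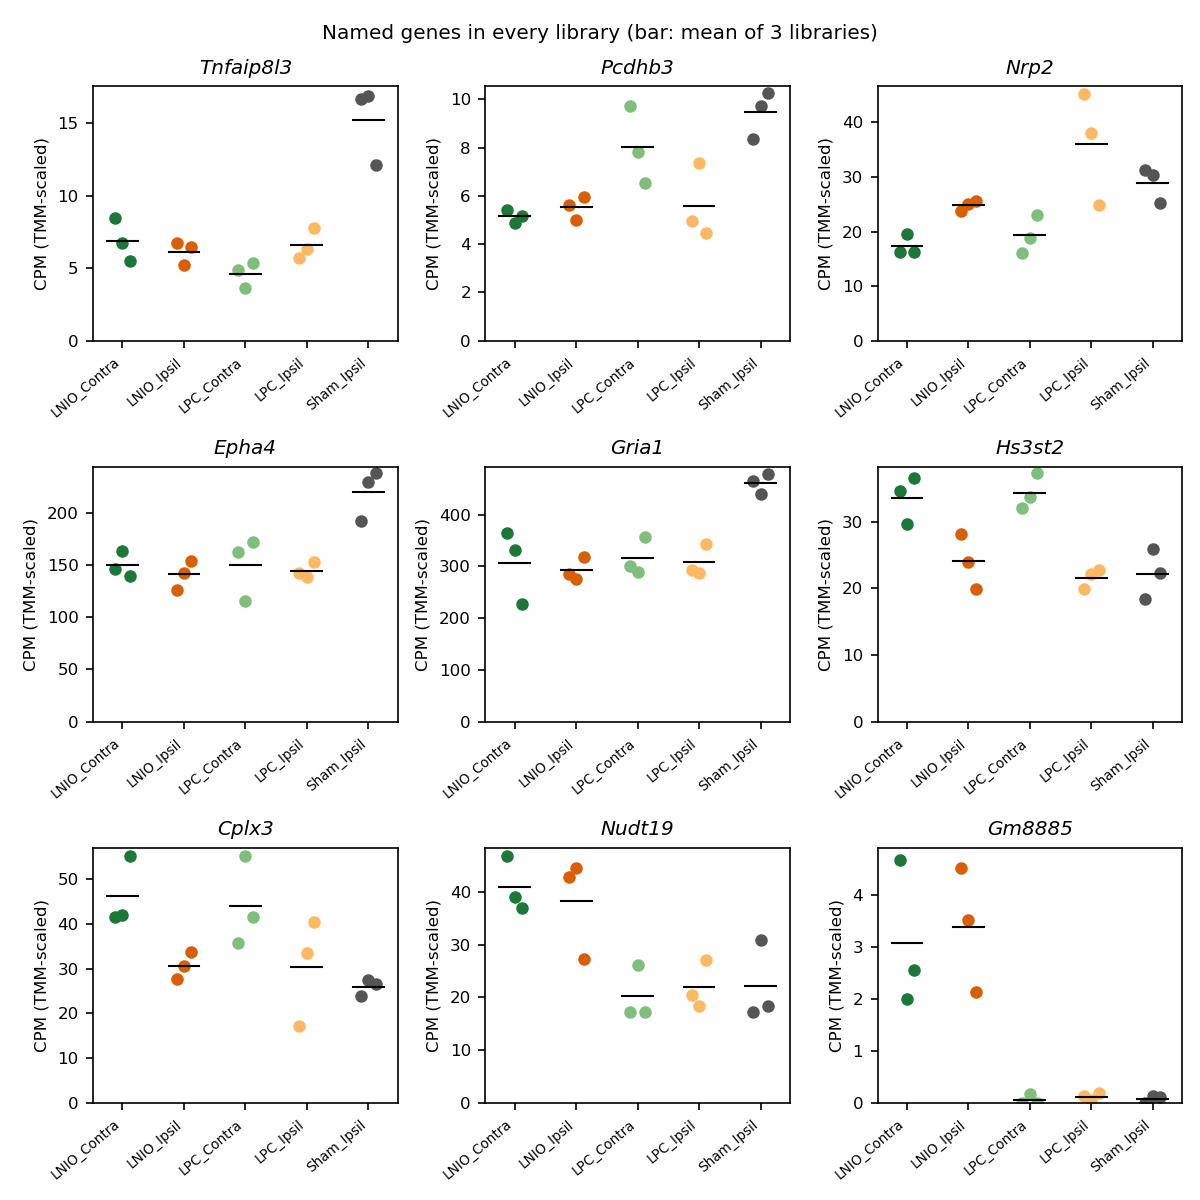
CPM (linear axis from 0) of 9 named genes in all 15 libraries, with points for libraries and a bar for the mean of 3. Tnfaip8l3, Epha4 and Gria1 are highest in Sham_Ipsil, whereas Gm8885 and Nudt19 are high in both L-NIO groups.

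No difference in microglial genes or their injury genes was detected between LNIO_Contra and Sham_Ipsil. Of 12 genes typical of resting microglia, 0 had an unadjusted p under 0.05, and their median log2 fold change was 0.08. P2ry12, a purinergic receptor that microglia use to sense injury, stood at 65.1, 58.1 and 61.9 CPM in LNIO_Contra and at 82.1, 62.6 and 63.5 CPM in Sham_Ipsil. Of 22 genes of damage-associated microglia, again 0 had a p under 0.05 and the median was 0.03. Trem2, the lipid receptor that drives this state, stood at 11.5, 12.2 and 11.1 CPM in LNIO_Contra and at 15.7, 7.03 and 8.40 CPM in Sham_Ipsil, a log2 fold change of 0.16 with an interval of -1.39 to 1.70. The lysosomal protein Cd68 had a log2 fold change of 0.02 (interval -1.54 to 1.59). These intervals are wide, and in this fit differences of 2-fold either way were not detectable for these genes. The fit takes its spread from all 15 libraries, among them LPC_Ipsil, the injured side of the LPC model. There the damage-associated genes averaged 3.49, 2.79 and 0.19 log2 units above the Sham_Ipsil mean. Intervals from only the compared groups are not given here. Sham_Ipsil replicate 1 was the highest Sham_Ipsil library for several microglial genes: Spp1 (osteopontin) stood at 5.36, 6.19 and 5.24 CPM in LNIO_Contra and at 16.6, 3.99 and 3.92 CPM in Sham_Ipsil. In bulk tissue fewer cells of a type and less RNA per cell cannot be told apart.

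The injured side of the same model gives a scale for these values. Libraries of LNIO_Contra and LNIO_Ipsil with the same number deviated from their group means together (r across genes 0.62, 0.374 and 0.238), so they were also compared as pairs. Such values do not establish pairs, and the labels state none. LNIO_Contra replicate 2 and LNIO_Ipsil replicate 3 had an r of 0.203. The other differently numbered combinations ran from -0.504 to -0.052. In that paired fit of 6 libraries, 598 genes (3.56%) were called lower and 87 (0.518%) higher in LNIO_Contra. Of the microglial lists, 12 of 12 resting and 20 of 22 damage-associated genes were called lower in LNIO_Contra than in LNIO_Ipsil. The median log2 fold change of the damage-associated list was -2.17. Trem2 averaged 11.6 CPM in LNIO_Contra and 63.7 CPM in LNIO_Ipsil, and its paired log2 fold change was -2.46 ± 0.11 with an edgeR adjusted p of 1.14e-08. Gfap, the intermediate filament of reactive astrocytes, averaged 414 CPM in LNIO_Contra and 895 CPM in LNIO_Ipsil (-1.07 ± 0.16, edgeR adjusted p 0.00175). Against Sham_Ipsil the 598 genes had a median log2 fold change of -0.03. Of them, 20 had an unadjusted p under 0.05 (background 2.72%), and 76 did not overlap between LNIO_Contra and Sham_Ipsil (background 10.1%). The interval against Sham_Ipsil stayed within 1 log2 unit of 0 for only 181 of them, against 76% of all genes. For most of these 598 genes the fit of all 15 libraries therefore did not exclude a 2-fold difference from Sham_Ipsil. How wide the intervals are in a fit of only LNIO_Contra and Sham_Ipsil was not tested. Both comparisons use the same LNIO_Contra libraries. The count against LNIO_Ipsil depended on the fit: it was 0 in the model of all 15 libraries, 355 with only these groups and no pairs, and 685 (4.08%) with pairs.

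**Figure D3:**
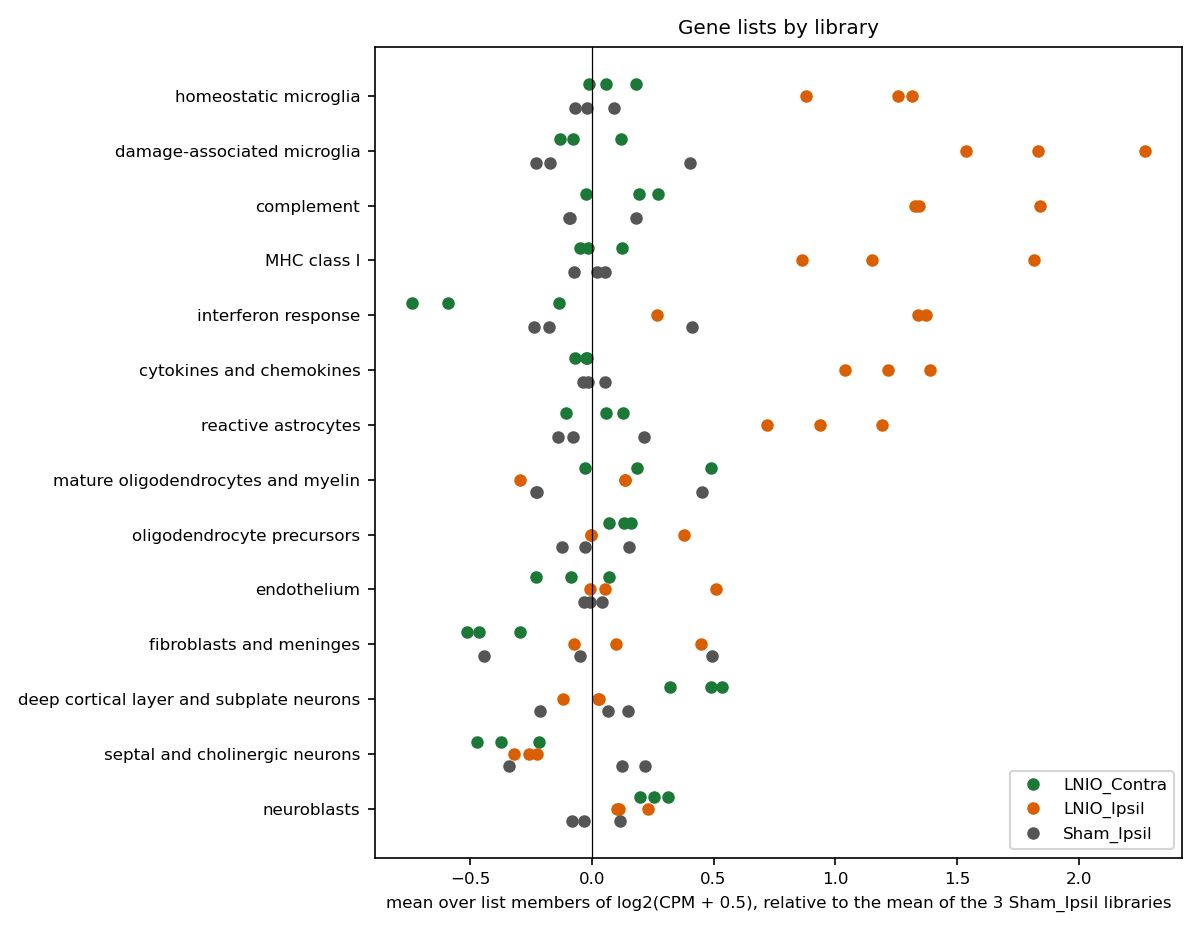
Points are libraries, and the x axis gives log2(CPM + 0.5) averaged over the members of each list, minus the average of the 3 Sham_Ipsil libraries. For the microglial, complement and chemokine lists the LNIO_Contra points lie among or near the Sham_Ipsil points and left of all LNIO_Ipsil points.

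Complement, antigen presentation and chemokines had few members past an unadjusted p of 0.05. In lists this short 1 member already exceeds the background share of 2.72%. Of 14 complement genes 1 was higher, C1ra, the protease subunit that starts the classical pathway, at 2.53, 2.22 and 1.71 CPM in LNIO_Contra and 1.25, 1.08 and 1.31 CPM in Sham_Ipsil (log2 fold change 0.82 ± 0.26, not called). Of 11 MHC class I genes, 0 had such a p, and the median was -0.01. Of 18 cytokine and chemokine genes 1 was higher and 1 lower. Lif, a cytokine of the interleukin-6 family, had 37 counts over LNIO_Contra and 9 over Sham_Ipsil, a ratio of 3.82 with a counting interval of 1.81 to 9. Cxcl10, an interferon-induced chemokine for T cells, stood at 0.403, 0.142 and 0.183 CPM in LNIO_Contra and at 0.478, 0.473 and 2.52 CPM in Sham_Ipsil. Both genes rest on few reads. Lcn2, a lipocalin that astrocytes release after injury, had 0 counts in each LNIO_Contra library and 5, 2 and 3 counts in Sham_Ipsil, too few to compare.

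Interferon-stimulated genes leaned to lower values in LNIO_Contra. These genes are switched on by interferons through the transcription factor complex ISGF3, which binds a repeated GAAA element in their promoters. Of 20 such genes, 19 had a log2 fold change below 0, with a median of -0.51, and 3 had an unadjusted p under 0.05 in that direction (background of lower genes 1.67%). Ifit1, which binds viral RNA caps, and Ifit3, its partner, lie close to each other on chromosome 19. Their promoters are shown because both hold the element, and are printed from RefSeq (GRCm38.p6, + strand, 5′ to 3′, the 250 bases before the annotated start), with matches to GAAANNGAAA or its reverse complement TTTCNNTTTC in capitals.
Ifit1 (chr19:34640639-34640888): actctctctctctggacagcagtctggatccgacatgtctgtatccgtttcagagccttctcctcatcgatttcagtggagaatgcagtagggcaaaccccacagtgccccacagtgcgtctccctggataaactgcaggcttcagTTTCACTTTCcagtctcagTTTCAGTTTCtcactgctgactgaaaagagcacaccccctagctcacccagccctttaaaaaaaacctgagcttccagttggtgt
Ifit3 (chr19:34583279-34583528): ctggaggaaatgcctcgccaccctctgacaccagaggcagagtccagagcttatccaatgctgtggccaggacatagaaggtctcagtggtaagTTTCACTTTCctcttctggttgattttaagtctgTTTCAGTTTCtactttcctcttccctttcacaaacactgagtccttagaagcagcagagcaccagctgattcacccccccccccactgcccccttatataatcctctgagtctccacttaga
Each window held 2 matches, at 104 and 85 bases before the start in Ifit1 and at 156 and 122 bases before it in Ifit3. Of the 14 list genes with a window in the RefSeq table, 8 (57.1%) had a match on either strand, against 936 of all 27025 genes with one (3.46%). Ifi44, which had the smallest p of the list, and Oasl2 had no match in this window. A match is a description of the letters and not evidence of a bound site.

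Ifit1 stood at 1.09, 2.51 and 0.610 CPM in LNIO_Contra and at 2.51, 2.64 and 11.1 CPM in Sham_Ipsil, a log2 fold change of -1.93 ± 0.60. Ifit3 stood at 2.71, 6.43 and 3.96 CPM in LNIO_Contra and at 8.67, 11.6 and 21.6 CPM in Sham_Ipsil (-1.67 ± 0.53), and Ifi44 had the same order (-1.55 ± 0.46). Ifit3 and Ifi44 did not overlap between the groups, and LNIO_Contra replicate 2 came close to Sham_Ipsil replicate 1 for Ifit1; none was called. Sham_Ipsil replicate 3 was the highest of the 6 libraries for Ifit1, Ifit3 and Cxcl10. Without it the median of the 20 genes was -0.18, against -0.51 with it. Against LPC_Contra, a comparison of the same LNIO_Contra libraries, the median of the 20 genes was -0.64. There 2 of them were lower at an unadjusted edgeR p under 0.05, against 3.43% of all genes in either direction. In the paired fit 16 of the 20 were called lower in LNIO_Contra than in LNIO_Ipsil, against 3.56% of all genes. Ifit3 had a paired log2 fold change of -1.58 ± 0.22 (edgeR adjusted p 0.000359).

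Fibroblast and meningeal genes stood next to them. Of 15 genes, 4 were lower (background 1.67%) and 1 higher (background 1.05%) at an unadjusted p under 0.05, and the median log2 fold change was -0.63. Dcn (decorin), a proteoglycan of connective tissue, stood at 5.58, 5.20 and 6.22 CPM in LNIO_Contra and at 8.37, 7.10 and 17.3 CPM in Sham_Ipsil. Lum (lumican), a related proteoglycan, stood at 0.864, 1.23 and 0.975 CPM in LNIO_Contra and at 1.97, 1.96 and 3.07 CPM in Sham_Ipsil. Mrc1, the mannose receptor of macrophages at brain borders, stood at 1.90, 2.08 and 2.50 CPM in LNIO_Contra and at 2.93, 3.11 and 7.49 CPM in Sham_Ipsil. For each of these genes Sham_Ipsil replicate 3 was the highest of the 6 libraries, as it was for the interferon genes above. Without that library the fibroblast median was -0.31 and the median of the 9 border macrophage genes was 0.01, against -0.39 with it.

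Most oligodendrocyte genes had slightly higher values in LNIO_Contra, and most overlapped the Sham_Ipsil libraries. Those without overlap were 2 of 22 myelin and 3 of 14 precursor genes, both shares above the background of higher genes of 5.01%. Of 22 genes of mature oligodendrocytes and myelin, 19 had a log2 fold change above 0, the median was 0.24 and 0 had an unadjusted p under 0.05. Mbp stood at 7424, 7180 and 7555 CPM in LNIO_Contra and at 7039, 5237 and 5245 CPM in Sham_Ipsil, a log2 fold change of 0.34 with an interval of -0.05 to 0.73. Sham_Ipsil replicate 1 lay near the LNIO_Contra libraries, and without it the median of the list was 0.48. Without LNIO_Contra replicate 3 the median was 0.04, and without Sham_Ipsil replicate 2 or 3 it was 0.13 or 0.14. Leaving out any 1 of the 6 libraries left it between 0.04 and 0.48. Mog, a glycoprotein on the outer face of myelin, overlapped between the groups (0.28, interval -0.28 to 0.83). Of 14 precursor genes 1 had a p under 0.05: Olig2, the transcription factor that specifies the lineage, at 49.3, 58.5 and 63.0 CPM in LNIO_Contra and 46.4, 42.4 and 40.2 CPM in Sham_Ipsil. Pdgfra, the growth factor receptor of precursors, differed by 0.06 on the log2 scale (interval -0.24 to 0.37).

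Genes of astrocytes, vessels and axons also had few members past an unadjusted p of 0.05. Here too 1 member of a list already exceeds the background share of 2.72%. Glul, the glutamine synthetase of astrocytes, stood at 1352, 1466 and 1593 CPM in LNIO_Contra and at 1127, 1109 and 1047 CPM in Sham_Ipsil (log2 fold change 0.43 ± 0.15). It was 1 of 13 astrocyte genes with an unadjusted p under 0.05, and 0 of 17 reactive astrocyte genes had one. Of the 13 astrocyte genes, 4 were higher in LNIO_Contra without overlap (background of higher genes 5.01%), and the median of the list was 0.01. Gfap overlapped widely, with 304, 478 and 461 CPM in LNIO_Contra and 529, 329 and 248 CPM in Sham_Ipsil. Nos3, endothelial nitric oxide synthase and the enzyme that L-NIO blocks, stood at 5.24, 2.69 and 3.35 CPM in LNIO_Contra and at 3.95, 3.85 and 4.17 CPM in Sham_Ipsil, a log2 fold change of -0.09 with an interval of -0.79 to 0.61. In the list of 14 genes of nitric oxide signalling and vessel tone, the prostaglandin synthase Ptgs2 had the smallest p, with 3.57, 5.06 and 4.94 CPM in LNIO_Contra and 5.98, 10.5 and 12.6 CPM in Sham_Ipsil (-1.10 ± 0.42). Of 15 endothelial genes 0 had such a p, and the tight junction gene Cldn5 differed by 0.14 (interval -0.41 to 0.69). Of 16 genes of axons and synapses 0 had one either, with a median of 0.03, and the neurofilament Nefl differed by -0.01 (interval -0.35 to 0.32).

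Genes of the deepest cortical layer had higher values in LNIO_Contra. These subplate-type and layer 6 neurons lie directly above the callosum. The amount of adjoining cortex in a sample and expression per cell cannot be told apart in their RNA. All 11 tested genes had a log2 fold change above 0, the median was 0.53, and 6 had an unadjusted p under 0.05 (background of higher genes 1.05%), none of them called. Cplx3, a complexin of subplate neurons, stood at 41.6, 41.9 and 55.1 CPM in LNIO_Contra and at 23.8, 27.4 and 26.6 CPM in Sham_Ipsil (0.83 ± 0.24). Ccn2, a matricellular growth factor also made by these neurons, stood at 45.8, 46.6 and 62.8 CPM in LNIO_Contra and at 36.4, 29.9 and 32.0 CPM in Sham_Ipsil (0.66 ± 0.26). Nxph4, a neurexin ligand, stood at 9.15, 7.61 and 10.7 CPM in LNIO_Contra and at 4.07, 6.08 and 5.48 CPM in Sham_Ipsil (0.81 ± 0.29). For Cplx3, Ccn2, Nxph4, Moxd1 and Rprm no LNIO_Contra library overlapped a Sham_Ipsil library, 5 of 11 genes against a background of 5.01% higher and not overlapping. Leaving out any 1 of the 6 libraries left the median between 0.27 and 0.62. Of 14 genes of cortical excitatory neurons in general, 6 had a log2 fold change above 0 and 8 below it, with a median of -0.02.

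The same genes were set against the other uninjected and injected sides. Against LPC_Contra the median of the 11 genes was -0.04, with Cplx3 at 44.1 CPM in that group. Against LNIO_Ipsil the paired fit called 6 of the 11 higher and 0 lower in LNIO_Contra, against 0.518% of all genes called higher and 3.56% called lower. Cplx3 averaged 46.2 CPM in LNIO_Contra and 30.6 CPM in LNIO_Ipsil (paired log2 fold change 0.58 ± 0.11, edgeR adjusted p 0.00352), and Ccn2 averaged 51.7 CPM in LNIO_Contra and 34.0 CPM in LNIO_Ipsil (0.59 ± 0.11, adjusted p 0.00452). In LPC_Ipsil, the injured side of the LPC model, Cplx3 averaged 30.4 CPM and Ccn2 35.2 CPM. For these genes the means of both contralateral groups were thus above those of all 3 groups from an injected side. How much of this is tissue taken at dissection was not tested.

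Genes of other neighbouring regions had mixed values. Of 9 septal genes 3 were lower at an unadjusted p under 0.05 (background 1.67%), among them Trpc4, a cation channel of septal neurons, at 12.2, 9.65 and 10.4 CPM in LNIO_Contra and 28.8, 15.8 and 17.9 CPM in Sham_Ipsil (-0.96 ± 0.26). Dgkg, a diacylglycerol kinase, stood at 20.7, 25.6 and 18.5 CPM in LNIO_Contra and at 45.2, 37.3 and 37.1 CPM in Sham_Ipsil, and Zic1, a transcription factor of medial forebrain, at 11.5, 12.5 and 11.2 CPM in LNIO_Contra and at 18, 31.9 and 20.02 CPM in Sham_Ipsil. The cholinergic marker Chat overlapped, with 2.53, 3.17 and 2.19 CPM in LNIO_Contra and 1.08, 3.04 and 6.04 CPM in Sham_Ipsil, so the septal list did not move as one. Of 11 hippocampal genes 10 had negative values with a median of -0.50 and 0 below that p. All 14 striatal genes had positive values, median 0.25, but Ppp1r1b, the dopamine-regulated phosphatase inhibitor of striatal neurons, ran from 296 to 431 CPM in LNIO_Contra and from 77.4 to 445 CPM in Sham_Ipsil. Without Sham_Ipsil replicate 1, the lowest library, the striatal median was -0.19. Ttr, the transthyretin of choroid plexus, ran from 55.5 to 1140 CPM in LNIO_Contra and from 24.4 to 1295 CPM in Sham_Ipsil.

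**Figure D4:**
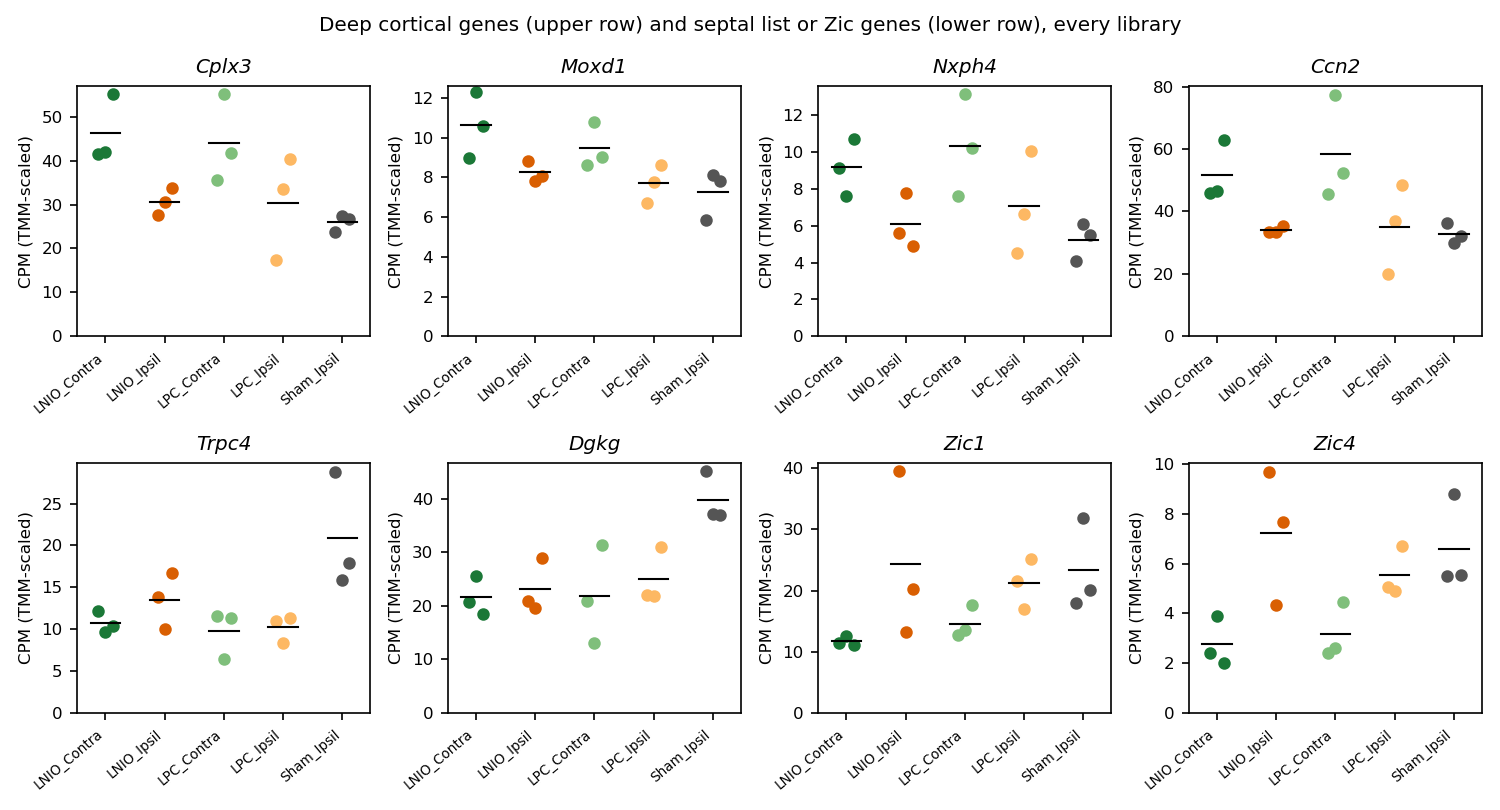
CPM (linear axis from 0) of 4 deep cortical genes and of Trpc4, Dgkg, Zic1 and Zic4 in all 15 libraries, with a bar for the mean of 3. The contralateral groups have the highest means for the deep cortical genes, and LNIO_Contra libraries lie below Sham_Ipsil libraries for the lower row.

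Genes of young neurons and of axon growth included some with higher values. Of 12 neuroblast genes 2 had higher values at an unadjusted p under 0.05 (background 1.05%): the surface sialoglycoprotein gene Cd24a, at 17.4, 19.5 and 22.6 CPM in LNIO_Contra and 13.5, 14.1 and 11.3 CPM in Sham_Ipsil (0.61 ± 0.19), and the transcription factor Sox11, at 26.1, 39.2 and 34.3 CPM in LNIO_Contra and 25.9, 24.3 and 26.0 CPM in Sham_Ipsil. Dcx, the microtubule protein that marks migrating neuroblasts, overlapped (-0.06, interval -0.40 to 0.27). Of 13 genes of axon growth and injury response 3 had higher values at such a p (background 1.05%), Gadd45a, Nts and again Sox11. Atf3, a transcription factor that injured neurons and other cells switch on, stood at 0.345, 0.378 and 0.183 CPM in LNIO_Contra and at 0.538, 0.609 and 0.402 CPM in Sham_Ipsil, while its mean in LNIO_Ipsil was 4.63 CPM.

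Gene length moved with the comparison. Across the 10 bins of gene length the median log2 fold change of LNIO_Contra over Sham_Ipsil ran from 0.16 in the bin with the shortest genes (median 1076 bases) to -0.11 in the bin with the longest (median 13182 bases). Within libraries, the rank correlation, across genes, of a gene's deviation with its length was -0.0989, 0.213 and -0.243 in LNIO_Contra and 0.233, 0.128 and 0.179 in Sham_Ipsil, so LNIO_Contra replicate 2 lay with the Sham_Ipsil libraries. Cytosolic ribosomal protein genes, which are short, had values above 0 for 33 of 34 members and a median of 0.21; with the trend on length removed it was 0.09. The median of the deep cortical list was then 0.52, with 10 of its 11 genes above 0, and that of the interferon list was -0.57, with 18 of its 20 genes below 0. Epha4, a long gene, had a log2 fold change of -0.50 with the trend removed, and Tnfaip8l3 one of -1.15. With the trend removed 0 genes were called and 493 had an unadjusted p under 0.05.

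**Figure D5:**
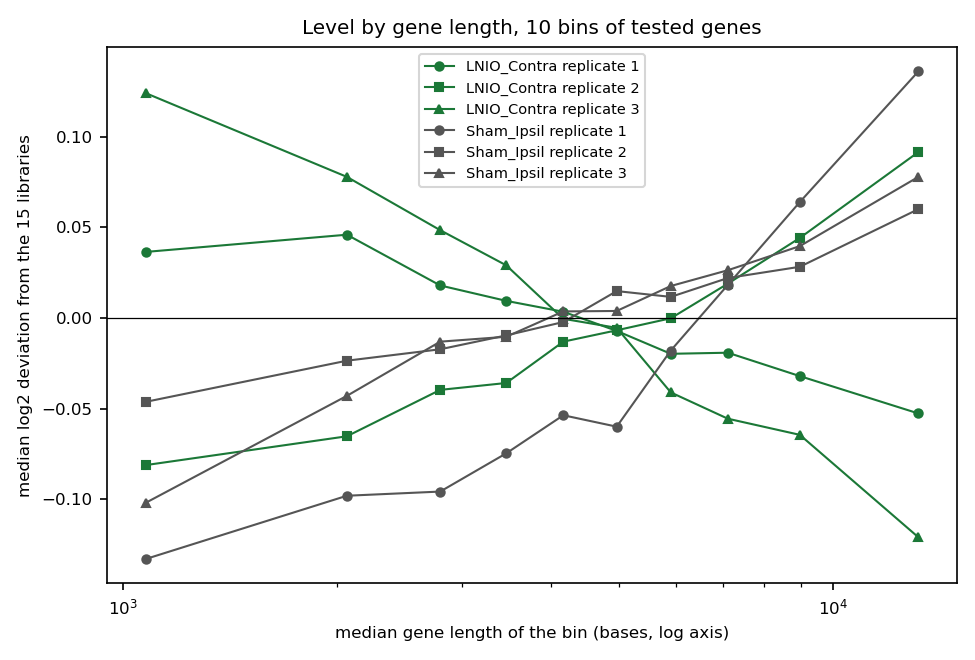
Median log2 deviation from the mean of all 15 libraries in 10 bins of tested genes by length (log axis, bases), 1 line for each of the 6 libraries. LNIO_Contra replicates 1 and 3 slope down with length, and LNIO_Contra replicate 2 and the Sham_Ipsil libraries slope up.

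LNIO_Contra was also tested against LPC_Contra, the uninjected side of the other model, to place the genes above. Again 0 of 16795 genes were called in edgeR, 576 (3.43%) had an unadjusted p under 0.05, and DESeq2 called 8. Gm8885 had the smallest adjusted p, 0.0658. LPC_Contra replicate 2 stood apart from the other libraries of its group in its dependence on gene length (rank correlation -0.499), and without it edgeR called 2 genes, Gm8885 and Flt1, and 1470 had a p under 0.05.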

How the data were processed

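RNA had been sequenced from mouse corpus callosum. Tissue was extracted in TRIzol, depleted of ribosomal RNA, purified by poly(A) and sequenced paired-end on a NovaSeq instrument, per the labels' protocols. The deposited count table holds the authors' raw read counts per gene symbol, and the deposited FPKM table their length-scaled values. The submitters' processing notes list HISAT2 2.2.1, R 4.4.2 and GRCm39. How reads were counted, whether by strand, and on which annotation is not given in the sources used here. Overlapping, antisense and near-identical genes are therefore uncertain. Library totals of all 15 libraries ran from 14896445 to 20916606 counts, and replicate pairs differed beyond sampling noise (chi-square per degree of freedom 10.1 to 63.7).

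The test was edgeR 4.0.16 (R 4.3.3) on the counts: filterByExpr (minimum count 10, minimum total 15), TMM scaling, and a robust quasi-likelihood fit of all 15 libraries, without a block. Genes count as called where the Benjamini-Hochberg adjusted p over all tested genes is under 0.05. CPM values are TMM-scaled; errors on log2 fold changes are SE, and 95% intervals come from the same fit. Counting intervals are exact binomial and cover counting error only. The edgeR fit without a block was tested on simulated counts for LNIO_Contra against Sham_Ipsil.

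Named genes were, in each direction, the 15 with the smallest p among genes of average log2 CPM of at least 1 without overlap, the 5 smallest p-values, up to 4 per described list, and 17 fixed genes; those named beyond that were chosen after their values were seen. Some genes that this rule gives are not reported here. The members and the 51 gene lists were chosen with earlier results of these data known. Same-numbered LNIO_Contra and LNIO_Ipsil libraries were treated as pairs because every pair's deviations correlated above 0.1 (0.62, 0.374 and 0.238). Those of LNIO_Contra and Sham_Ipsil did not (0.0461, 0.0807 and -0.0281). A value above 0.1 does not establish a pair: between LNIO_Contra and LPC_Contra libraries of any number r ran from -0.371 to 0.371. The labels do not state a pairing. Alternatives were DESeq2 1.42.0, limma 3.58.1 on log2(FPKM + 0.1) and log2(FPKM + 1), other scalings, filters and blocks, and leaving out libraries; removal of the length trend was chosen after seeing the data.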

Additional observations from a re-analysis of the deposited data

How the results depend on the processing

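Between LNIO_Contra and Sham_Ipsil 0 genes were called with DESeq2 size factors, library totals, a minimum count of 50, no robust dispersion, the length trend removed, or any 1 of the 6 libraries left out (0 to 0 called, 292 to 680 at an unadjusted p under 0.05). DESeq2 called 2; edgeR on only these groups called 3 (Gm8885, 1700020N18Rik and Pcdh20), and without the LPC libraries 2. No filter on low counts, limma on log2(FPKM + 0.1), limma on log2(FPKM + 1), and leaving out LPC_Contra replicate 2 gave 1 each, Gm8885. With the replicate number as a block, in all libraries or in only the groups compared, 1 was called, Alb. These replicate numbers did not pair LNIO_Contra with Sham_Ipsil. Against LPC_Contra, DESeq2 called 8, leaving out LPC_Contra replicate 2 gave 2, and no filter, either replicate block, either FPKM setting and the removed length trend gave 1 each. Against LNIO_Ipsil, DESeq2 called 175, only the 2 groups 355, these with the replicate block 685, without the LPC libraries 393, without LPC_Ipsil replicate 3 371 and without LNIO_Ipsil replicate 1 1; the other settings gave 0. The causes were not tested. Of the fold changes of named genes under the alternatives, 4877 kept their sign and their side of the threshold, 67 changed sign without being called in either fit, and 8 were newly called. Of 237 genes, 37 had both signs across the alternatives, among them Trem2 (-0.05 to 0.58), Gfap (-0.05 to 0.52) and Spp1 (-0.88 to 0.50). Low counts limit Gm8885, Hbq1a, Lif, Cxcl10 and Lcn2.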

Other observations

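Some transcripts stood out in single L-NIO libraries on both sides of the brain; these genes were chosen after their values were seen. Alb, the serum albumin gene of the liver, had 1311 counts in LNIO_Contra replicate 1 and 1582 in LNIO_Ipsil replicate 1, against 0 in the other LNIO_Contra libraries and in all 3 Sham_Ipsil libraries, and 75 in LPC_Ipsil replicate 1. Of the genes that glucocorticoids induce, Sgk1, Plin4, Hif3a and Pdk4 were high in replicate 2 of both sides. Fkbp5 was also highest in replicate 2 within each L-NIO group, though less set apart, and Zbtb16 was so only in LNIO_Contra. Pdk4 stood at 12.5, 35.8 and 16.3 CPM in LNIO_Contra and at 19.25, 16.3 and 16.3 CPM in Sham_Ipsil, with 28.6 CPM in LNIO_Ipsil replicate 2. Fkbp5, a chaperone of steroid receptors, stood at 19.1, 30.7 and 24.2 CPM in LNIO_Contra and at 19.8, 27.2 and 25.9 CPM in Sham_Ipsil. In LNIO_Ipsil Fkbp5 stood at 16.4, 36.0 and 22.3 CPM. Zbtb16, a transcription factor, stood at 24.4, 36.3 and 27.6 CPM in LNIO_Contra and at 55.5, 33.3 and 37.9 CPM in Sham_Ipsil. Sgk1, a serum- and glucocorticoid-induced kinase, stood at 51.1, 186 and 71.0 CPM in LNIO_Contra and at 57.3, 70.9 and 66.9 CPM in Sham_Ipsil, with 169 CPM in LNIO_Ipsil replicate 2. Plin4, a lipid droplet protein, stood at 3.57, 14.4 and 2.93 CPM in LNIO_Contra and at 5.80, 2.64 and 3.07 CPM in Sham_Ipsil, with 10.4 CPM in LNIO_Ipsil replicate 2. Hif3a, an inhibitor of hypoxia signalling, stood at 5.36, 14.0 and 2.99 CPM in LNIO_Contra and at 3.83, 2.71 and 3.17 CPM in Sham_Ipsil, with 14.8 CPM in LNIO_Ipsil replicate 2.

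A pair of genes outside the naming rule was low in LNIO_Contra when the fit held only the groups compared. Pcdh20, a protocadherin, stood at 16.2, 11.3 and 11.7 CPM in LNIO_Contra and at 34.5, 34.6 and 31.9 CPM in Sham_Ipsil, and between 6.60 and 24.1 CPM in the other 9 libraries. 1700020N18Rik had 1 count in each LNIO_Contra library and 31, 18 and 25 counts in Sham_Ipsil, with 46 in LPC_Ipsil replicate 3.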
